A study of Mus musculus with 12 samples.

Results

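The genes described here are those of the mouse immunoglobulin heavy and light chains, read in 12 RNA-seq libraries of denervated fat. They were chosen by symbol alone: every gene whose symbol begins with Ighv, Igkv or Iglv, and the constant region genes Ighm, Ighd, Igha, Ighe, Ighg1, Ighg2b, Ighg2c, Ighg3, Igkc and Iglc1 to Iglc3. This gave 360 of the 47729 genes in the files, made up of 185 Ighv, 160 Igkv and 3 Iglv variable genes, 8 heavy chain constant genes and 4 light chain constant genes. All libraries came from male wild-type C57BL/6J mice of 6 to 10 weeks on a standard low-fat rodent diet, and every depot had been surgically denervated, so depot is the only factor. The depots were interscapular brown fat (BAT), inguinal white fat (IWAT), epididymal white fat (EWAT) and retroperitoneal white fat (RWAT), with 3 libraries each. Every library is from denervated tissue, and innervated fat was not analysed here. Whether libraries of 1 depot are from different mice is not in the labels, and p-values measure only the spread between these libraries, which may be technical.

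An immunoglobulin chain is made from a rearranged variable region joined to a constant region. The heavy chain lies on chromosome 12, the kappa light chain on chromosome 6 and the lambda light chain on chromosome 16. A B cell first makes IgM from Ighm, with IgD from Ighd by alternative splicing, and class switching later replaces Ighm with an Ighg, Ighe or Igha gene. Ighm RNA ends either in a membrane form, which makes the B cell receptor, or in a secreted form, which plasma cells make in excess. Each B cell clone uses 1 rearranged heavy and 1 light variable gene, so the spread of counts over variable genes depends on how many clones, and how much RNA from each, were in the tissue. Fat inside the abdomen of the mouse is known to hold B-1 cells, which make natural IgM. Among mouse B-1a cells, receptors that pair Ighv11-2 with Igkv14-126, or Ighv12-3 with Igkv4-91, are known for binding phosphatidylcholine.

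The variable genes on which the description turns are those of these 2 receptors, and the leading heavy and kappa genes of EWAT library 1 (Ighv7-3 and Igkv8-27) and of BAT library 2 (Ighv4-1 and Igkv6-32), the 2 libraries with the most variable gene counts. The last 120 germline bases of each variable exon are printed 5′ to 3′ from the GENCODE M21 transcripts (GRCm38). Capitals run from the last in-frame cysteine codon, where complementarity-determining region CDR-H3 or CDR-L3 begins, to the exon's end, where the D or J segment is joined.
Ighv11-2 (chr12:114048241-114048360, minus strand): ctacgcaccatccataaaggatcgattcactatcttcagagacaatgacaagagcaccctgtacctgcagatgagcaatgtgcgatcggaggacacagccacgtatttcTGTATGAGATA
Igkv14-126 (chr6:67896523-67896642, plus strand): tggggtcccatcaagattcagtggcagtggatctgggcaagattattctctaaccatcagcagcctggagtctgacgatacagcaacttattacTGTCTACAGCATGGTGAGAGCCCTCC
Ighv12-3 (chr12:114366521-114366640, minus strand): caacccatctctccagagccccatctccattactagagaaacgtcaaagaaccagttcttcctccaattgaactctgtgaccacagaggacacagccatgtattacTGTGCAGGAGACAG
Igkv4-91 (chr6:68768555-68768674, minus strand): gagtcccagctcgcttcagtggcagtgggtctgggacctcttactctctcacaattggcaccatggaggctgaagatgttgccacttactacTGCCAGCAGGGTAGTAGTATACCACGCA
Ighv7-3 (chr12:114153180-114153299, minus strand): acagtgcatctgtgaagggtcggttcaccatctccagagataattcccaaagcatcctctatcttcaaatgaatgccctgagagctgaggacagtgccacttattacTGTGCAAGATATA
Igkv8-27 (chr6:70171809-70171928, minus strand): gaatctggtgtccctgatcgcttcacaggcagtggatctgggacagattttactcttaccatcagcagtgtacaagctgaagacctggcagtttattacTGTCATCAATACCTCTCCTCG
Ighv4-1 (chr12:113948282-113948401, minus strand): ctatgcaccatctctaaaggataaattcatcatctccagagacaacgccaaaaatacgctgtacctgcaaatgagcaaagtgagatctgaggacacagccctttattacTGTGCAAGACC
Igkv6-32 (chr6:70074024-70074143, minus strand): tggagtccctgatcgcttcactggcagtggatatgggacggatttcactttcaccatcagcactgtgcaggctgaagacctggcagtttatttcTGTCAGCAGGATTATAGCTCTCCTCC
Past the cysteine the germline ends of the heavy genes are short, and those of the kappa genes longer, since the rest of that loop in the heavy chain comes from the D and J segments. Each variable gene in the files is listed with germline transcripts, and a read across a junction holds bases that these lack. How many such reads were lost was not tested.

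Library totals ran from 15699912 to 25633413 estimated counts, and levels are given as CPM, counts scaled to library sizes adjusted by TMM. On that scale 3 counts, the most that a count of 0 allows, are 0.128 CPM in EWAT library 2, the lowest such floor, and 0.236 CPM in BAT library 1, the highest. This floor and the intervals below cover counting error only. Depot markers stood where the labels put them on average: Ucp1, which uncouples respiration in brown adipocytes, had a mean of 1232 ± 1535 CPM in BAT and 66.3 ± 56.5 CPM in IWAT, against 0.0452 ± 0.0430 CPM in EWAT and 4.62 ± 6.75 CPM in RWAT (SD, n = 3 each), and BAT library 2 had only 32.2 CPM. Wt1, a mesothelial and visceral fat gene, averaged 29.8 ± 9.10 CPM in EWAT and 16.6 ± 16.1 CPM in RWAT. Skeletal muscle markers summed to 18980, 13152 and 2170 CPM in the BAT libraries and to 15614 CPM in RWAT library 3, against 11.9 to 71.3 CPM in the other libraries. Adipocyte markers summed to 22506 CPM in RWAT library 1, against 4419 and 2723 CPM in the other RWAT libraries. The part of muscle and of fat cell content in the values below was not tested. EWAT library 1 stands apart from all others in the immunoglobulin genes, and RWAT library 1 in the ratio of Ighm to the light chains. Several results that rest on them are therefore also given without them.

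Immunoglobulin RNA was a small share of every library, and most of it was Ighm. The 360 genes together took 0.00362% of the counts in RWAT library 2, the lowest, and 0.0578% in EWAT library 1, the highest. Of the 360, 198 had any count, 162 were at 0 in all 12 libraries, and 123 reached 3 counts in at least 1 library. Of the 218 variable genes not annotated as pseudogenes, 177 had any count, against 9 of the 130 annotated variable pseudogenes. Pseudogenes took 0% to 2.94% of the variable gene counts in 11 libraries and 1 of 13 counts (7.69%) in RWAT library 1. Fewer B-lineage cells and less immunoglobulin RNA per cell cannot be told apart in these bulk samples.

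The summed level of all members was 114, 184 and 67.7 CPM in BAT libraries 1 to 3, 175, 99.1 and 63.5 CPM in IWAT, 505, 95.2 and 119.9 CPM in EWAT, and 151, 29.7 and 50.4 CPM in RWAT. All 4 depots overlapped, and EWAT library 1 was 2.74-fold above the next library. The depot means were 122 ± 58.6 CPM in BAT, 112 ± 56.7 CPM in IWAT, 240.0 ± 229.7 CPM in EWAT and 77.2 ± 65.1 CPM in RWAT (SD, n = 3 each), so the spread within a depot was as large as the differences between depots. With library 1 of the depot left out, the mean was 107.6 CPM in EWAT and 40.1 CPM in RWAT. Without Ighm the sums were 18.6, 57.1 and 13.4 CPM in BAT, 29.6, 24.6 and 10.1 CPM in IWAT, 242, 24.6 and 47.6 CPM in EWAT, and 2.32, 7.39 and 11.3 CPM in RWAT. On this sum EWAT library 1 was 4.24-fold above the next library, BAT library 2. Every EWAT library and every BAT library lay above every RWAT library, while IWAT overlapped RWAT. For this and the later separations of depots, the share of all genes that also separate was not counted.

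**Figure D1:**
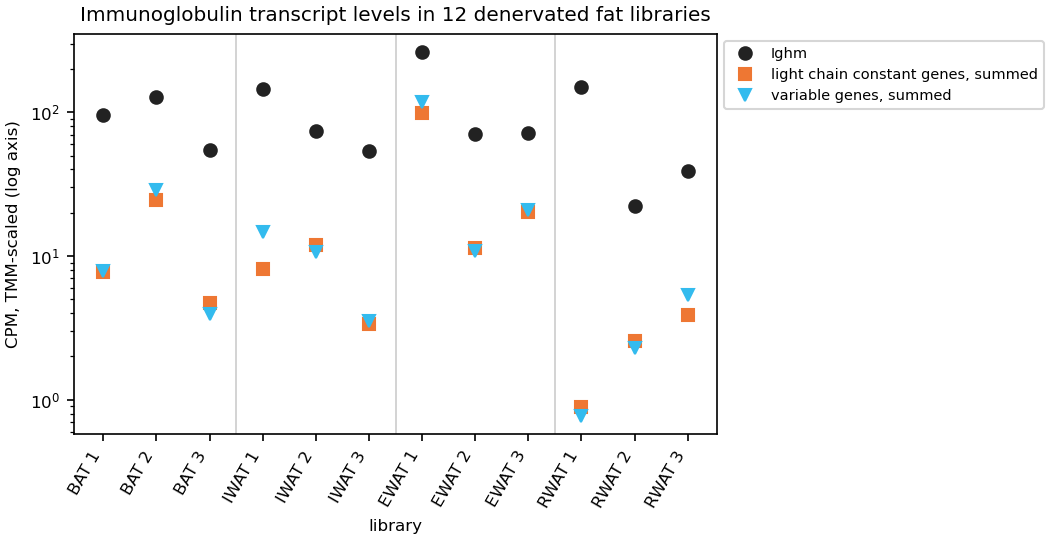
Levels in each of the 12 libraries on a log axis of TMM-scaled CPM: Ighm (circles), the 4 light chain constant genes summed (squares) and all variable genes summed (triangles). The light chain and variable sums lie close to each other in every library, highest in EWAT library 1 (98.7 and 119 CPM) and lowest in RWAT library 1 (0.893 and 0.774 CPM), while Ighm in RWAT library 1 is at 149 CPM.

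Ighm (ENSMUSG00000076617, chr12:113418558-113422730, minus strand, GRCm38), the constant region of the IgM heavy chain, was the member with the most counts and the highest TPM (a level per transcript length) in all 12 libraries. It had 1217, 1940 and 1110 counts in BAT libraries 1 to 3, 2910, 1344 and 1023 in IWAT, 4983, 1649 and 1446 in EWAT, and 2503, 496 and 720 in RWAT. Scaled to the library this was 95.8, 127 and 54.3 CPM in BAT, 145, 74.4 and 53.4 CPM in IWAT, 263, 70.6 and 72.3 CPM in EWAT, and 149, 22.3 and 39.2 CPM in RWAT. Library 1 was highest in IWAT, EWAT and RWAT, and all depots overlapped. Igkc (ENSMUSG00000076609, chr6:70726435-70726966, plus strand), the only kappa constant gene, had 69, 263 and 79 counts in BAT, 97, 191 and 46 in IWAT, 1460, 203 and 333 in EWAT, and 12, 35 and 58 in RWAT. Its levels were 5.43, 17.2 and 3.87 CPM in BAT, 4.83, 10.6 and 2.40 CPM in IWAT, 77.0, 8.69 and 16.7 CPM in EWAT, and 0.715, 1.58 and 3.15 CPM in RWAT. Every EWAT library and every BAT library lay above every RWAT library for Igkc. IWAT overlapped RWAT, and BAT and IWAT overlapped each other. From the lowest to the highest library Ighm spanned 11.8-fold and Igkc 108-fold.

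An IgM molecule holds equal numbers of heavy and light chains, and kappa is the more common light chain in the mouse. The TPM of Ighm over that of Igkc was 5.50, 2.31 and 4.30 in BAT, 9.31, 2.17 and 6.74 in IWAT, 1.09, 2.50 and 1.35 in EWAT, and 65.1, 4.35 and 3.81 in RWAT. The ratio was near 1 in EWAT libraries 1 and 3 and far above all others in RWAT library 1, where Ighm was at 132 TPM and Igkc at 2.03 TPM. That library had 2503 Ighm counts beside 15 light chain constant counts, 13 variable gene counts, 7 Ighd counts and 12 counts of Cd79a. All 75-base windows of the Ighm transcripts were unique to Ighm among the GENCODE M21 transcripts. Whether reads were counted by strand is not given in the sources used here, and no other annotated gene overlaps the position of Ighm in that annotation. Igkc overlaps Gm30211, Iglc1 and Iglc3 overlap 2010309G21Rik, and Iglc2 overlaps Iglj2, so counts of the light chain genes are uncertain to the extent that reads of these genes could not be told apart.

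The form of Ighm could be estimated, because the deposited mean transcript length of a gene is weighted by the abundance of its transcripts, and the secreted transcript has 1493 bases and the membrane transcript 1698. The membrane form made up 24.1%, 21.6% and 38.4% of Ighm transcripts in BAT libraries 1 to 3, 28.4%, 31.9% and 45.7% in IWAT, 7.58%, 33.5% and 28.1% in EWAT, and 23.4%, 35.8% and 36.2% in RWAT. The secreted form was the larger part in all 12 libraries. EWAT library 1 had the lowest membrane share, and the other 11 libraries lay between 21.6% and 45.7% with all depots overlapping. The depot means were 28.0% ± 9.04 in BAT, 35.3% ± 9.15 in IWAT, 23.1% ± 13.7 in EWAT and 31.8% ± 7.28 in RWAT (SD, n = 3 each), and no test was run on them. The estimate rests on reads in the last exons of each form and carries the error of that assignment, which the files do not give per transcript.

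**Figure D2:**
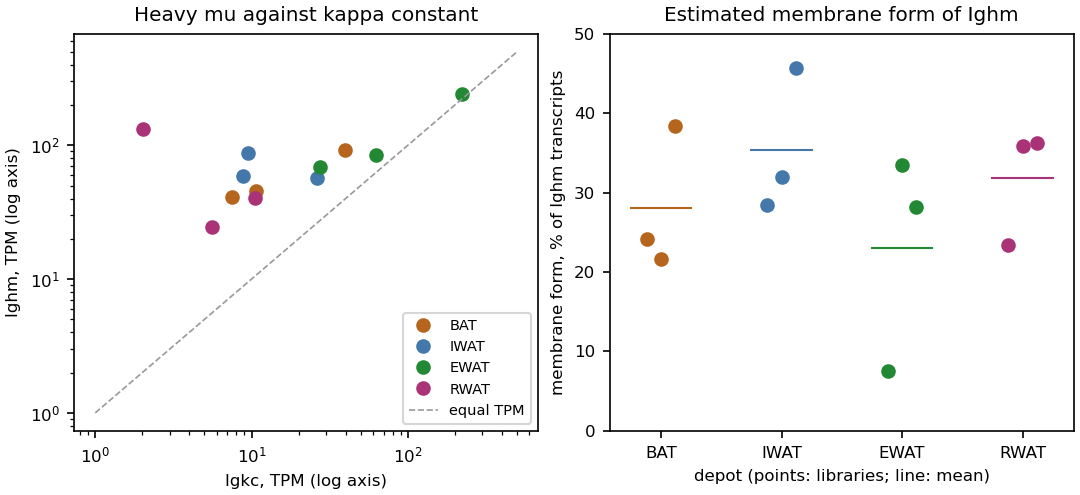
Left, Ighm against Igkc in TPM on log axes, 1 point per library coloured by depot, with a dashed line of equal TPM; EWAT libraries 1 and 3 lie near the line (ratios of 1.09 and 1.35) and RWAT library 1 far above it (65.1). Right, the estimated membrane form as a percentage of Ighm transcripts, with points for libraries and a line for the depot mean; EWAT library 1 is lowest at 7.58%.

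The other heavy chain constant genes were rare. Ighd (chr12:113406604-113416324), whose IgD marks naive mature B cells, had 10, 17 and 15 counts in BAT, 106, 33 and 39 in IWAT, 22, 43 and 34 in EWAT, and 7, 43 and 11 in RWAT. In CPM it averaged 0.878 ± 0.205 in BAT, 3.05 ± 1.94 in IWAT, 1.57 ± 0.359 in EWAT and 0.984 ± 0.830 in RWAT (SD, n = 3 each). Its BAT libraries lay below every IWAT and EWAT library. Igha (chr12:113254830-113260236), the constant region of IgA, the antibody of mucosal secretions, had 27, 32 and 50 counts in BAT, 5, 1 and 20 in IWAT, 102, 6 and 83 in EWAT, and 4, 13 and 6 in RWAT. At 2.13, 2.09 and 2.45 CPM the BAT libraries were close to each other and above every IWAT and RWAT library, while EWAT was split between 5.38 and 4.15 CPM in libraries 1 and 3 and 0.257 CPM in library 2. In TPM, a level per length, Igha ran from 1.31 to 2.95 in BAT and reached 1.63 in IWAT, so BAT and IWAT overlapped on that scale. Ighe, the constant region of IgE, had 1 count in all, in EWAT library 1.

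The IgG genes held 448 counts in the 12 libraries, of which 75.9% were in EWAT library 1. Their sum was 0, 10 and 30 counts in BAT libraries 1 to 3, 25, 3 and 2 in IWAT, 340, 7 and 11 in EWAT, and 0, 0 and 20 in RWAT. Outside EWAT library 1 no library had more than 30, and all 4 depots overlapped. Ighg3, the isotype often made against polysaccharides in the mouse, had 235 counts in EWAT library 1 and 8 in the other 11 libraries together. Ighg2b had 95 counts in EWAT library 1, 25 in BAT library 3 and 9 in IWAT library 1. Ighg1 had at most 15 counts, in IWAT library 1, and Ighg2c at most 19, in RWAT library 3.

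**Figure D3:**
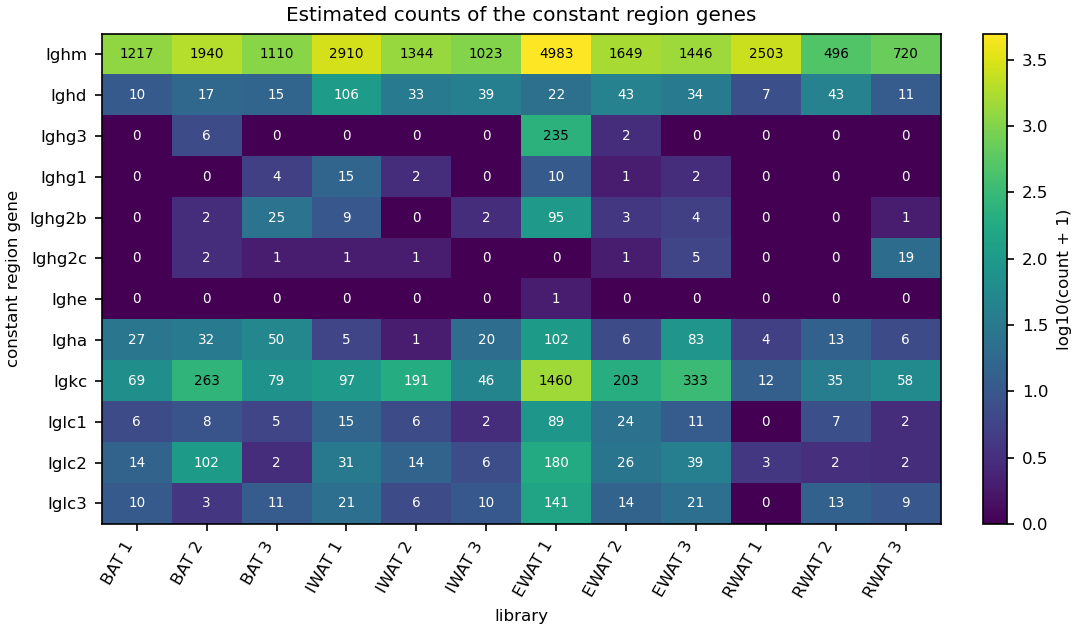
Estimated counts, rounded, of the 12 constant region genes (rows) in the 12 libraries (columns), with the colour on a log10(count + 1) scale. Ighm leads every column, and Ighg3 is at 235 counts in EWAT library 1 and at 6 or fewer in every other library.

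The isotype mix was compared per length, as a share of the summed TPM of the heavy chain constant genes. Ighm took 96.3%, 96.3% and 89.3% of it in BAT libraries 1 to 3, 95.1%, 97.1% and 93.6% in IWAT, 88.6%, 96.9% and 89.6% in EWAT, and 99.6%, 89.3% and 93.9% in RWAT. Igha took 3.06%, 2.27% and 5.78% in BAT, 0.238%, 0.103% and 2.58% in IWAT, 2.51%, 0.509% and 7.40% in EWAT, and 0.188%, 3.18% and 1.15% in RWAT. Ighm was above 88% in every library, and for both genes all depots overlapped. Over depots Ighm averaged 94.0% ± 4.02 in BAT, 95.3% ± 1.75 in IWAT, 91.7% ± 4.51 in EWAT and 94.3% ± 5.17 in RWAT, and Igha 3.70% ± 1.84, 0.972% ± 1.39, 3.47% ± 3.55 and 1.50% ± 1.53 in the same depots (SD, n = 3 each). An exact permutation test of the one-way F statistic over the 4 depots gave p = 0.742 for Ighm and p = 0.399 for Igha, both at an adjusted p of 0.818 over the 3 shares tested. The smallest p that this design allows is 6.49e-05.

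The kappa share of light chain constant TPM was also tested. It was 68.8%, 69.7% and 78.4% in BAT, 57.0%, 87.4% and 70.0% in IWAT, 76.4%, 73.4% and 81.5% in EWAT, and 56.9% and 79.4% in RWAT libraries 2 and 3. RWAT library 1 had only 15 light chain counts, under the minimum of 30, and was left out. Kappa was above lambda in every library tested, with the lowest shares in RWAT library 2 and IWAT library 1. The exact permutation test over 11 libraries gave p = 0.818 (adjusted p = 0.818). Of the lambda genes, Iglc2 had 102 counts in BAT library 2, against 14 and 2 in the other BAT libraries, and Iglv2 held 52.6 of that library's 65 Iglv counts. Iglv2 also led in EWAT library 3 with 15.7 counts and in RWAT library 2 with 3, while Iglv3 led in BAT library 3, IWAT library 2 and RWAT library 3 with 5 to 7 counts. Iglv1 led in EWAT library 1 with 126.5 counts, beside 82.5 of Iglv2. Iglv1 and Iglv2 share 30 of their 75-base windows, and the split between them is uncertain to that extent.

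The heavy variable genes had 51, 187 and 38 counts in BAT, 105, 94 and 22 in IWAT, 967, 98 and 179 in EWAT, and 8, 21 and 46 in RWAT. The kappa variable genes had 36, 186 and 35 counts in BAT, 164, 80 and 36 in IWAT, 1069, 121 and 210 in EWAT, and 5, 23 and 41 in RWAT. EWAT library 1 held 52.9% of all variable gene counts in the series. Of the Ighv genes, 56 reached 3 counts in some library and 23 of these in exactly 1 library, and 18 did so only in EWAT library 1. Of the Igkv genes, 53 reached 3 counts, 24 of them in exactly 1 library and 14 only in EWAT library 1. The most widely seen at 3 counts were Igkv1-110 in 10 libraries, Iglv1 and Iglv2 in 9, Iglv3 in 8, and Ighv7-3, Ighv1-82 and Igkv14-126 in 6.

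Which gene led, and by how much, differed from library to library. Ighv7-3 had 282 counts in EWAT library 1, which was 29.2% of its Ighv counts (Wilson 95% interval 26.4% to 32.1%). It also led in BAT library 1, with 20 counts or 39.2% (27.0% to 52.9%). Ighv4-1 led in BAT library 2 with 53 counts, or 28.3% (22.4% to 35.2%). Ighv4-1 was at 0 in the other BAT libraries, and its next highest library was EWAT library 1 with 38 counts. Ighv11-2 led in EWAT library 3 with 49 counts, or 27.4% (21.4% to 34.3%), and in EWAT library 2 and RWAT library 3 with 10 and 7 counts. Ighv12-3 led in IWAT library 2 with 24 counts, or 25.5% (17.8% to 35.2%). In BAT library 3 Ighv2-9 led with 9 counts, and in IWAT library 1 Ighv5-4 led with 14. Ighv6-6 and Ighv1-82 led with 3 counts each in IWAT library 3 and RWAT library 2, which had under 30 Ighv counts. The leading Ighv gene thus took between 10.2% and 39.2% of the counts, and 6 different genes led in the 9 libraries with at least 30 counts at both loci.

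Among kappa genes, Igkv8-27 had 174 counts in EWAT library 1, or 16.3% (14.2% to 18.6%), and at most 2 in any other library. Igkv1-117, second there, had 138.8 counts. It shares 102 of its 75-base windows with Igkv1-110, so the split between those is uncertain. Igkv6-32 led in BAT library 2 with 47 counts, or 25.3% (19.6% to 32.0%), and had 4 counts in IWAT library 1 and 1 in EWAT library 3. Igkv4-91 led in IWAT library 2 with 28 counts, or 35.0% (25.5% to 45.9%). Igkv14-126 led in EWAT library 3 with 55 counts, or 26.2% (20.7% to 32.5%), in EWAT library 2 with 19 and in RWAT library 3 with 12. Igkv19-93 led in IWAT library 1 with 18 counts, and Igkv9-120 in BAT library 1 with 9. Igkv6-15 led in BAT library 3 with 8 counts and in IWAT library 3 with 6, and Igkv1-110 in RWAT library 2 with 4. In all, 7 different Igkv genes led in those 9 libraries.

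The effective number of genes measured the spread. It is the number of equally used genes that would give the same chance of drawing 1 gene from 2 counts. That chance was estimated without bias for the number of counts, taken as rounded per gene. The effective number is its inverse, which is not free of bias at low counts. For Ighv it was 4.38, 7.17 and 11.5 in BAT libraries 1 to 3, 31.0 and 7.43 in IWAT libraries 1 and 2, 9.87, 36.8 and 9.56 in EWAT, and 14.2 in RWAT library 3. For Igkv it was 8.51, 8.27 and 11.0 in BAT, 25.9, 4.91 and 15.4 in IWAT, 15.2, 16.7 and 9.13 in EWAT, and 6.36 in RWAT library 3. IWAT library 1 and EWAT library 2 had the widest Ighv use, and depots overlapped wherever more than 1 library could be counted. Libraries with under 30 counts at a locus were left out. Drawn down to 38 Ighv counts, the expected number of genes seen was 25.1 in IWAT library 1 and 25.5 in EWAT library 2, and 10.9 to 19.7 in the other 7 libraries, EWAT library 1 being highest of these.

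**Figure D4:**
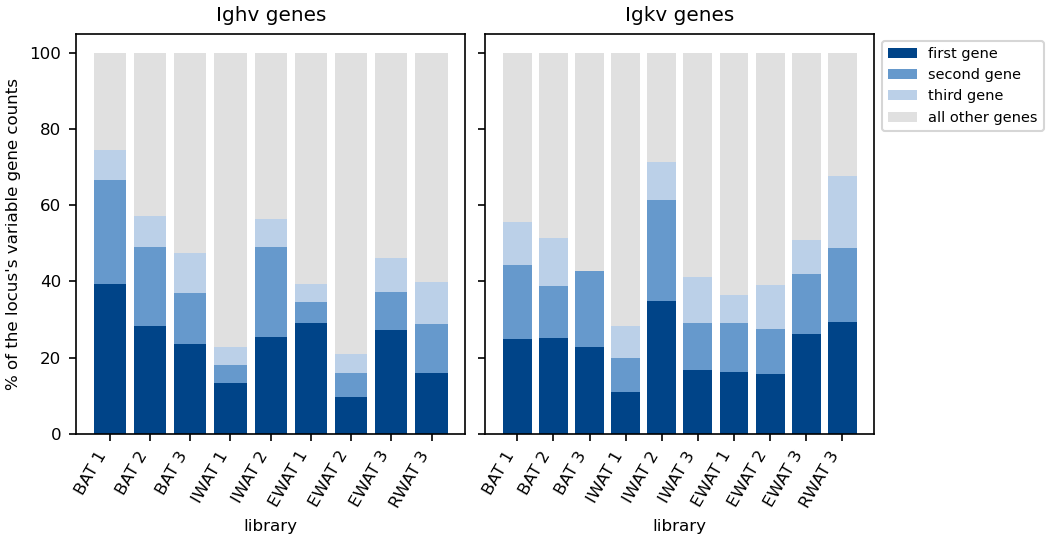
Share of a library's Ighv counts (left) and Igkv counts (right) taken by each of its 3 leading genes and by all others; libraries with under 30 counts at a locus are not shown, and ranks with under 3 counts are counted with the others. The first gene's share is highest in BAT library 1 for Ighv (39.2%) and in IWAT library 2 for Igkv (35.0%), and lowest in EWAT library 2 for Ighv and IWAT library 1 for Igkv.

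Variable genes fall into families by sequence, named by the number before the dash. The largest heavy family, Ighv1, holds 54 of the 115 Ighv genes not annotated as pseudogenes (47.0%), and took 26.9% of Ighv counts in the series, or 29.7% without EWAT library 1. In the 9 libraries it ranged from 13.7% to 47.6%, highest in IWAT library 1. Ighv7, with 4 genes (3.48%), took 21.2% of all Ighv counts but 7.03% without EWAT library 1, so its level rests on that library. Ighv11, with 2 genes (1.74%), took 6.43%, or 10.3% without EWAT library 1. Among kappa families, Igkv4 holds 26 of the 100 genes not annotated as pseudogenes and took 22.0% of the counts, and Igkv8, with 10 genes, took 17.4%, or 6.08% without EWAT library 1. These are shares of counts, not per length, and counts of a family come from few genes in most libraries.

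The heavy and kappa genes of the 2 known B-1a receptors, whose exon ends are printed above, were set beside each other by library. Ighv11-2 had 0 counts in every BAT library, 0, 3.3 and 0 in IWAT, 27.4, 9.6 and 49 in EWAT, and 0, 2 and 7.3 in RWAT. Igkv14-126 had 1, 0 and 0 counts in BAT, 0, 6 and 3 in IWAT, 31, 19 and 55 in EWAT, and 0, 0 and 12 in RWAT. Both were highest in the EWAT libraries, with RWAT library 3 and IWAT library 2 next. Ighv12-3 had 0 counts in every BAT library, 1, 24 and 0 in IWAT, 29, 4 and 18 in EWAT, and 0, 0 and 2 in RWAT. Igkv4-91 had 0 counts in every BAT library, 1, 28 and 0 in IWAT, 52, 14 and 33 in EWAT, and 0, 0 and 3 in RWAT. All EWAT libraries and IWAT library 2 held both of them. At least 3 counts of Ighv11-2 were found in 5 libraries, and all 5 also had 3 counts of Igkv14-126, which reached 3 counts in 6. For Ighv12-3 it was 4 libraries, all of which had 3 counts of Igkv4-91, which reached 3 counts in 5. How often other heavy and kappa genes were found together was not counted, so this is not read as particular to these genes. Bulk RNA does not show which heavy and light chain came from the same cell.

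Ighv11-2 and Ighv12-3 together made up 0% of the Ighv counts in each BAT library, with upper limits of the Wilson 95% interval between 2.01% and 9.18%. In the EWAT libraries they made up 5.79%, 14.3% and 37.4%, with intervals of 4.49% to 7.45%, 8.70% to 22.6% and 30.7% to 44.7%. In IWAT library 2 they made up 28.7% (20.6% to 38.6%), but in IWAT library 1 only 1 of 105 counts (0.952%, 0.168% to 5.20%), and in IWAT library 3 none of 22. In RWAT library 3 they made up 19.6% (10.7% to 33.2%), in library 2 they were 2 of 21 counts and in library 1 none of 8. The 2 kappa partners took 41.9% of the Igkv counts in EWAT library 3, 27.3% in library 2 and 7.76% in library 1, and 42.5% in IWAT library 2 and 36.6% in RWAT library 3. In BAT the partners took 1 of 36 counts in library 1 and none of 186 and 35 counts in libraries 2 and 3. In IWAT library 1 they took 1 of 164 counts and in IWAT library 3 they took 3 of 36, so shares as low as in BAT were also found in white fat. BAT library 2 had 187 Ighv and 186 Igkv counts and none from these 4 genes, while EWAT library 2 had fewer counts at both loci and 14 and 33 from them. Ighv11-2 shares 96 of its 75-base windows with Ighv11-1, and each of the other 3 genes was unique in all of its windows. The 4 genes were picked for their known role and with earlier results of these data in view, so no test of their sum was made.

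**Figure D5:**
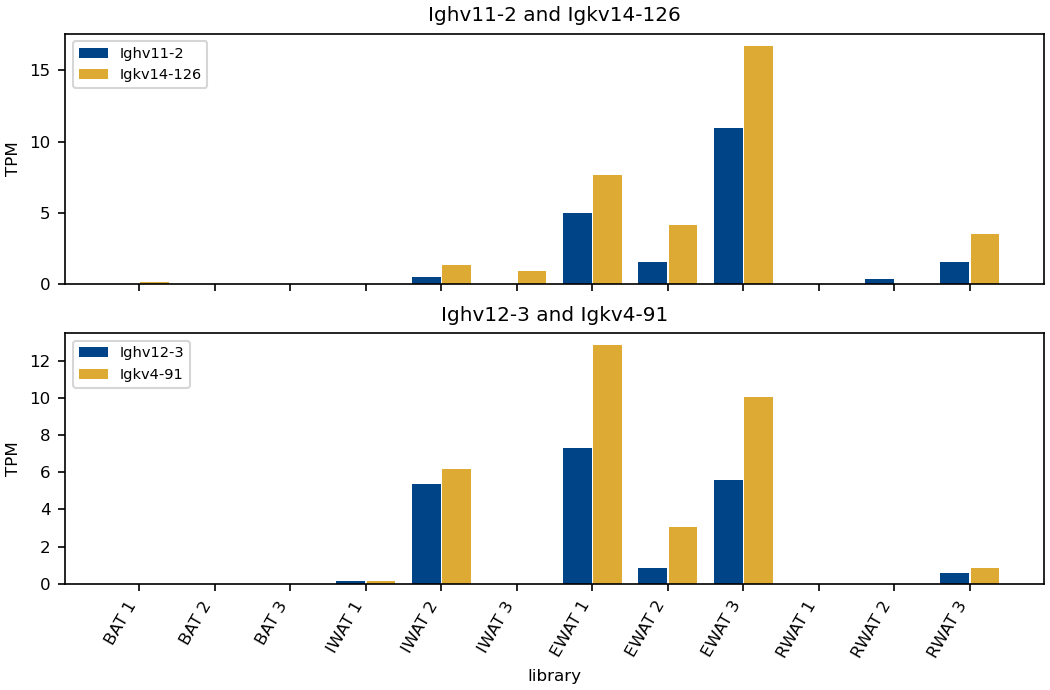
TPM, a level per length, of Ighv11-2 and Igkv14-126 (top) and of Ighv12-3 and Igkv4-91 (bottom) in the 12 libraries; bars are single libraries and start at 0. The highest bars are those of EWAT library 3 in the top panel (10.9 and 16.7 TPM) and of EWAT library 1 in the bottom panel (7.28 and 12.8 TPM), and IWAT library 2 has 5.38 and 6.17 TPM in the bottom panel.

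The members were then set against each other between depots with edgeR's quasi-likelihood test on all 19154 genes with enough counts, adjusted over all of them, with a gene called at an adjusted p under 0.05. Only 15 of the 360 members passed the filter on low counts: Ighm, Ighd, Igha, the 4 light chain constant genes, Ighv7-3, Ighv12-3, Igkv1-110, Igkv1-117, Igkv4-91, Igkv14-126, Igkv15-103 and Iglv2. Igkv15-103 is outside the naming rule and was named because it passed. A member could pass through the depot in which it was high, so counts over these 15 are given only beside the counts over all genes.

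BAT was set against the mean of the 3 white depots. No member was called, against 0.0992% of all genes tested, and 1 member had an unadjusted p under 0.05, against 18.1% of all genes. That member was Igkv14-126, with 1, 0 and 0 counts in BAT (adjusted p = 0.265). Ighm gave a log2 fold change of -0.04 ± 0.61 (SE, edgeR adjusted p = 0.970), Igkc of 0.30 (SE 0.72, adjusted p = 0.805) and Igha of 1.41 (SE 0.74, adjusted p = 0.320). The sign for Ighm turned with the tool, the block and the libraries used, and that for Igkc without TMM scaling. With library 2, led by Ighv4-1 and Igkv6-32, left out of BAT, the value for Igkc was -0.63.

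IWAT, the subcutaneous depot, was set against the mean of EWAT and RWAT. No member was called, against 0.141% of all genes, and 1 member had an unadjusted p under 0.05, against 11.5% of all genes. It was Ighd, at 3.05 CPM in IWAT, against 1.57 CPM in EWAT and 0.984 CPM in RWAT, with a log2 fold change of 1.28 ± 0.49 (SE, edgeR adjusted p = 0.413). Ighm was at -0.10 (SE 0.64, edgeR adjusted p = 0.951) in this comparison.

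EWAT was set against RWAT. No member was called, against 0.0418% of all genes, while 11 of the 15 had an unadjusted p under 0.05, against 9.04% of all genes. A member could pass the filter through its EWAT counts, and all 15 were read in the same libraries. The 11 are therefore not separate results, and their number is not read as an excess over all genes. For Igkc, at 77.0, 8.69 and 16.7 CPM in EWAT, against 0.715, 1.58 and 3.15 CPM in RWAT, the groups did not overlap. The share of all genes without overlap was not counted. Igkc gave a log2 fold change of 4.22 ± 1.01 (SE, edgeR adjusted p = 0.194). Without EWAT library 1 it was 2.79 (adjusted p = 0.114), and without RWAT library 1 it was 3.85 (adjusted p = 0.337). Iglc2, at 9.47, 1.11 and 1.93 CPM in EWAT, against 0.179, 0.0964 and 0.109 CPM in RWAT, gave a log2 fold change of 5.01 ± 1.44 (SE, edgeR adjusted p = 0.275), or 3.55 without EWAT library 1. Every EWAT library was above every RWAT library here too, and so was every IWAT library, the lowest of which was at 0.335 CPM. Igha gave a log2 fold change of 3.04 ± 1.04 (SE, edgeR adjusted p = 0.362), or 2.47 without EWAT library 1, though EWAT library 2, at 0.257 CPM, lay among the RWAT libraries.

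Iglc1 and Iglc3, the other lambda constant genes, had log2 fold changes of 3.75 (SE 1.08, adjusted p = 0.275) and 3.02 (SE 1.13, adjusted p = 0.419) in EWAT against RWAT. Iglc3 was at 7.46, 0.599 and 1.07 CPM in EWAT, against 0, 0.579 and 0.489 CPM in RWAT, and without EWAT library 1 its value was 1.14. That of Iglc1 was then 2.35. The lowest EWAT library was barely above the highest RWAT library, and the value moved most with EWAT library 1. Ighm differed less, with a log2 fold change of 0.95 ± 0.75 (SE, edgeR adjusted p = 0.781), which was 0.02 without EWAT library 1 and 2.13 (adjusted p = 0.361) without RWAT library 1. Ighd had 0.65 (SE 0.60, adjusted p = 0.809). Among variable genes, Ighv7-3 had 6.08 (SE 2.12, adjusted p = 0.399), or 2.57 without EWAT library 1, and Igkv14-126 had 2.97 (SE 1.25, adjusted p = 0.503), or 3.00 without it but 8.02 without RWAT library 3, which held all 12 of its RWAT counts. Folds fitted for genes near 0 in RWAT are set partly by edgeR's prior count.

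DESeq2, the tool that the submitters' processing notes also name, gave other calls on the same counts. It called Igkc (adjusted p = 0.000381), Iglc2 (adjusted p = 0.00553) and Iglc1 (adjusted p = 0.0232) in EWAT against RWAT, all higher in EWAT, which is 3 of 15 members against 2.86% of all genes. It called no member in BAT against white fat (4.97% of all genes called) or in IWAT against EWAT and RWAT (1.91%). Over any difference among the 4 depots, edgeR called no member, against 0.512% of all genes, while 10 of 15 members had an unadjusted p under 0.05, against 17.1% of all genes. DESeq2 called 5 there, against 11.3% of all genes: Igkc, Ighv7-3, Iglc2, Iglc1 and Igha. The limits of the filter and of shared libraries given above hold for all of these counts of members. In limma-voom no member was called in any of the 4 comparisons, so the calls rest on the choice of tool.

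Genes that B cells and plasma cells use alongside immunoglobulin were read from lists. Jchain, which links IgM and IgA into polymers, was at 2.05, 8.41 and 1.42 CPM in BAT, 2.05, 3.82 and 1.05 CPM in IWAT, 24.9, 0.992 and 3.73 CPM in EWAT, and 0.825, 0.514 and 0.979 CPM in RWAT. It was highest in EWAT library 1 and BAT library 2, the libraries with the highest light chain levels. Its log2 fold change in EWAT against RWAT was 3.67 (SE 1.15, adjusted p = 0.321), though EWAT library 2, at 0.992 CPM, was close to RWAT library 3, at 0.979 CPM. Mzb1, a chaperone of antibody assembly in B-1, marginal zone and plasma cells, was at 1.32, 0.514 and 0.500 CPM in EWAT, against 0, 0.180 and 0.326 CPM in RWAT. Both genes were highest where the light chains were, in EWAT library 1. Of the 14 plasma cell genes, 13 were tested. None was called by edgeR in any comparison, against 0.0418% to 0.512% of all genes. An unadjusted p under 0.05 was found for 1 to 4 of them, against 9.04% to 18.1% of all genes. DESeq2 called 1 of them in each of the 3 contrasts, against 1.91% to 4.97% of all genes. Over any difference it called 3, against 11.3% of all genes. Xbp1, the factor of secretion that had the highest mean of that list, was at 208 ± 36.8 CPM in BAT, 219 ± 43.3 CPM in IWAT, 145 ± 4.30 CPM in EWAT and 164 ± 21.8 CPM in RWAT (SD, n = 3 each), and many cells express it.

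B cell surface genes followed another order of libraries. The 19 B cell markers summed to 19.5, 18.7 and 42.6 CPM in BAT, 60.3, 27.9 and 47.5 CPM in IWAT, 44.8, 69.8 and 62.1 CPM in EWAT, and 18.4, 40.2 and 35.3 CPM in RWAT. EWAT library 1, highest in immunoglobulin, was lowest of the EWAT libraries on this sum, and RWAT library 1, second highest in Ighm, was lowest of all 12. In BAT against white fat the log2 fold change of Cd79a, a signalling part of the B cell receptor, was -1.67 (SE 0.49, edgeR adjusted p = 0.146). That of Ms4a1, which encodes CD20, was -1.20 (SE 0.43, adjusted p = 0.202), and that of Pou2af1, a coactivator of immunoglobulin transcription, -1.16 (SE 0.57, adjusted p = 0.303). Of the 16 B cell markers tested, none was called by edgeR in any of the 4 comparisons, against 0.0418% to 0.512% of all genes. DESeq2 called 2 in BAT against white fat, against 4.97% of all genes. All 16 were below 0 in BAT against white fat, while 45.0% of all genes were above 0. Their median was -1.16 against -0.07 over all genes. In EWAT against RWAT, 14 of 16 were above 0, against 46.4% of all genes, with a median of 1.27 against -0.04 over all genes. Markers of other cells moved with these. In BAT against white fat 1 of 13 macrophage marker rows was above 0, with a median of -0.63, against 8 of 8 adipocyte markers, with a median of 1.00, and 12 of 12 muscle markers, with a median of 7.29. In EWAT against RWAT 11 of 13 macrophage marker rows (median 0.77) and 12 of 13 T cell markers (median 0.95) were above 0, against none of 8 adipocyte markers (median -0.58). Summed macrophage markers ran from 5868 to 7909 CPM in EWAT and from 2064 to 5483 CPM in RWAT, and summed T cell markers from 16.9 to 25.3 CPM in EWAT and from 10.4 to 13.4 CPM in RWAT. The part of these cells in the B cell and immunoglobulin values was not tested.

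None of the members of the remaining immune lists was called in the 4 comparisons by edgeR, against 0.0418% to 0.512% of all genes. These were the genes of immunoglobulin assembly and class switch (3 of 10 tested), Fc receptors and immunoglobulin transport (8 of 10), B and plasma cell survival and homing (10 of 13), lymph node stroma (7 of 8) and T cell markers (13 of 13). DESeq2 called at most 2 genes of any of these lists in a comparison, against 1.91% to 11.3% of all genes. Igll1, part of the surrogate light chain of B cell precursors, averaged 0 in every depot. Macrophage markers summed to 1182 CPM in BAT library 1, the lowest, and 7909 CPM in EWAT library 2, the highest. Tnfsf13b, which encodes the B cell survival factor BAFF, had a log2 fold change of 0.02 in EWAT against RWAT (SE 0.33, adjusted p = 0.992). Glycam1 and Madcam1, markers of lymph node vessels, averaged at most 0.67 and 0.38 CPM in any depot, and their part in the B cell values was not tested.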

How the data were processed

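RNA was measured in 12 libraries of denervated fat, 3 each from BAT, IWAT, EWAT and RWAT. Per the labels' protocols, ribosomal RNA was removed from total RNA and sequencing gave single-end reads of 75 bases. The submitters' processing notes name Trimmomatic 0.36, RSEM 1.3.0, DESeq2 1.10.1 and build GRCm38.p4. The sources used here give neither annotation nor strand setting. The authors deposited RSEM estimated counts per gene, not normalised, with TPM values that are per length, a mean transcript length weighted by abundance, and a posterior standard deviation of each count. The members and lists were chosen with earlier results of these data known. All 360 members matched GENCODE M21 (GRCm38), and 2 member symbols occur on more than 1 identifier. No member was found in the RefSeq promoter table used here, so promoters were not searched, and protein sequences were not used here.

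Estimated counts were rounded, genes with too few counts removed with filterByExpr, and libraries scaled by TMM. All 12 libraries entered 1 quasi-likelihood fit in edgeR 4.0.16 (R 4.3.3), with Benjamini-Hochberg adjustment over 19154 genes. The biological coefficient of variation was 0.448. The fit was tested on simulated data. CPM is TMM-scaled, values with ± are mean and SD except log2 fold changes, where ± gives the SE, and where depots are averaged in a contrast, their fitted log2 levels were averaged. Shares of TPM were compared by exact permutation. Alternatives were DESeq2 1.42.0, limma-voom (limma 3.58.1), other scalings and filters, counts in place of TPM, a replicate block and leaving out each library. No 2 libraries of a depot agreed within sampling noise.

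Named genes are all 12 constant genes, the 3 highest of each variable locus, the leading variable gene of each library, and Jchain, Mzb1, Ms4a1, Cd79a and Pou2af1, and 1 further gene of the rule is not reported here. From each list the rule takes the 2 largest called changes in each direction, or, without calls, the gene of highest mean CPM. Ighv11-1, Tnfsf13b, Igll1, Glycam1 and Madcam1 were named after their values were seen, as was Igkv15-103.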

Additional observations from a re-analysis of the deposited data

How the results depend on the processing

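No immunoglobulin gene was called in any of the 4 comparisons with limma-voom, with RLE or no scaling factors, with no filter or 1 at 1 CPM in 3 libraries, with the replicate block, or with any library left out. DESeq2 called 3 in EWAT against RWAT and 5 over any difference. Counts over all genes moved more. For BAT against white fat they were 19 with edgeR, 950 with DESeq2, 3 with limma-voom, 11 without TMM, 47 with no filter, and 1 to 263 with a library left out, with 263 and 257 without RWAT libraries 1 and 3. For IWAT against EWAT and RWAT they were 27, 364 with DESeq2, 16 with limma-voom, and 6 to 139 with a library left out, the last without RWAT library 1. For EWAT against RWAT they were 8, 546 with DESeq2, and 0 to 804 with a library left out, 0 without EWAT library 2 and 804 without EWAT library 1. Over any difference they were 98, 2151 with DESeq2, 34 with limma-voom, 436 with no filter, and 11 to 1054 with a library left out, 11 without EWAT library 2 and 1054 without EWAT library 1. The replicate block gave 649 for BAT against white fat and 171 for any difference. Same-numbered libraries of different depots correlated at -0.44 to 0.76 (mean 0.21), with 11 of 18 pairs over 0.1. Differently numbered ones correlated at -0.76 to 0.69 (mean -0.11), with 10 of 36 pairs over 0.1. These values do not settle whether the numbers pair the libraries, and the main fit did not pair them. The cause of these moves was not tested.

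Of the fold changes of members that passed the filter, 42 values changed sign, none of them called, 789 kept sign and call, and 3 became called, all with DESeq2 in EWAT against RWAT. In BAT against white fat with limma-voom the log2 fold changes turned to -0.080 for Igkv15-103, 0.17 for Ighm, -0.24 for Iglv2, -0.054 for Igkv1-110, -0.74 for Igkv1-117 and 0.11 for Iglc1. In IWAT against EWAT and RWAT they turned to -0.91 for Igkv4-91, 0.15 for Ighm and -0.32 for Ighv12-3. Without TMM, Igkc turned to -0.067 in BAT against white fat and Iglc2 to -0.093 in IWAT against EWAT and RWAT. With the replicate block Ighm turned to 0.27 and 0.085 in these comparisons. With a library left out, the log2 fold changes in BAT against white fat ran from -4.56 to 3.33 for Igkv15-103, from -0.63 to 0.78 for Igkc, from -0.34 to 0.35 for Ighm, from -0.43 to 2.39 for Iglc2. They ran from -1.33 to 2.47 for Iglv2, from -0.97 to 1.31 for Igkv1-110, from -5.59 to 1.56 for Igkv1-117, from -0.51 to 0.17 for Iglc1. With a library left out, the log2 fold changes in IWAT against EWAT and RWAT ran from -3.30 to 2.35 for Igkv4-91, from -1.12 to 0.31 for Igkc, from -0.60 to 0.50 for Ighm, from -2.57 to 2.61 for Ighv12-3, from -0.42 to 0.99 for Iglc2. They ran from -3.33 to 1.09 for Igkv1-117, from -2.88 to 0.64 for Igkv14-126, from -1.28 to 0.22 for Iglc3, from -1.34 to 0.20 for Iglc1. The shares of Ighm, Igha and Igkc stayed on the same side of the threshold with counts in place of TPM, with the block and with each library left out. Counts were too few to measure the spread over variable genes in 3 libraries for Ighv and 2 for Igkv, which had under 30.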

Other observations

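Genes that bind or transport immunoglobulin, or attract B cells, were measured as well, and edgeR called none of those named here in any of the 4 comparisons. Fcgrt, the neonatal Fc receptor that recycles IgG, averaged 263 ± 32.4 CPM in BAT and 247 ± 35.0 CPM in IWAT, against 138 ± 23.2 CPM in EWAT and 159 ± 39.2 CPM in RWAT (SD, n = 3 each). Cxcl12, a chemokine that retains plasma cells in bone marrow, averaged 156 ± 21.8 CPM in EWAT and 98.1 ± 12.7 CPM in RWAT, with a log2 fold change of 0.67 ± 0.21 (SE, edgeR adjusted p = 0.321). Cxcl13, the chemokine that draws B cells into follicles and B-1 cells into serous cavities, averaged 23.1 ± 15.0 CPM in BAT, 16.1 ± 9.95 CPM in IWAT, 15.1 ± 10.3 CPM in EWAT and 6.03 ± 4.70 CPM in RWAT. Cd72, the B cell marker of highest mean, averaged 12.3 ± 6.63 CPM in BAT, 11.2 ± 5.32 CPM in IWAT, 15.4 ± 3.51 CPM in EWAT and 11.4 ± 6.88 CPM in RWAT.

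Among the depot markers some passed the test. Lhx8, a gene of brown fat, was higher in BAT than in white fat (log2 fold change 4.92 ± 0.39, SE, edgeR adjusted p = 0.00185), and so was Ucp1 (8.92 ± 1.25, adjusted p = 0.0356). Tbx15, a patterning gene, was lower in EWAT than in RWAT (-6.99 ± 0.84, adjusted p = 0.0200). In IWAT against EWAT and RWAT, Lhx8 (4.91 ± 0.47, adjusted p = 0.00344) and Shox2 (5.10 ± 0.56, adjusted p = 0.00673) were higher, and the mesothelial genes Upk3b (-8.39 ± 1.22, adjusted p = 0.0287) and Wt1 (-8.18 ± 1.03, adjusted p = 0.0139) were lower.

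In the other lists the gene of highest mean was Polh, a DNA polymerase of somatic hypermutation, at 15.3 to 20.99 CPM over the depot means, and Cd28, a T cell co-stimulatory receptor, at 2.06 to 3.28 CPM. Lyz2, a macrophage lysozyme, averaged 1103 to 3386 CPM, Fabp4, an adipocyte lipid carrier, 1972 to 6615 CPM, and Ttn, a giant muscle protein, 8.81 to 4353 CPM.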
